A study of Mus musculus with 6 samples.

Results

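The 40 genes described here control or carry out the cellular response to low oxygen and the breakdown of glucose to lactate. They were chosen by name, and all 40 were among the 18465 rows of the deposited expression table. They fall into 8 genes of HIF control, 18 of glucose uptake and glycolysis, 10 of lactate and pyruvate control and 4 hypoxia targets. RNA was sequenced from SLAM-LSK cells of C57BL/6 mouse bone marrow, the fraction enriched for haematopoietic stem cells, sorted as CD150-positive, Sca-1-positive and c-Kit-positive cells without CD48 or lineage markers. The 6 libraries comprised 3 from wild-type (WT) mice. The others, also 3, came from mice with 1 normal Mecom allele and 1 allele that encodes R751W, the group MecomWT:R751W, whose columns carry the short name hKI. The labels call the libraries biological replicates without saying whether each is 1 mouse or a pool, and give neither age nor any treatment, so a p-value here covers only how far these libraries spread, which may be technical.

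Hypoxia-inducible factors (HIFs) pair an oxygen-sensitive alpha subunit, HIF1A or EPAS1, with the stable partner ARNT. In oxygen, the EGLN prolyl hydroxylases mark the alpha subunit for VHL, which leads it to the proteasome, and HIF1AN blocks its coactivators. Without oxygen the pair binds a short core motif and switches on glucose transporters, glycolytic enzymes and the kinases that inhibit pyruvate dehydrogenase. Bone marrow stem cells are known for a low-oxygen niche and a strong use of glycolysis, with pyruvate dehydrogenase kinases linked to their quiescence. Much of HIF control acts on the protein, which RNA levels do not show.

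The core DNA motif bound by HIF is shown first, as a description of the members' promoters. Several members were chosen as HIF targets, which are known in part through this motif, so its share among them is not independent of the choice. RefSeq promoter windows on GRCm38, the assembly also called mm10, were found for 37 of the 40 genes; those without one were Epas1, Slc2a3 and Bnip3l. The 250 bases before each start were searched for ACGTG on both strands. At least 1 match stood before a start of 20 of the 37 members (54.1%), against 2819 of 11712 genes of the table with a window (24.1%). Per window the shares were 42.6% of 54 member windows and 20.8% of all 14863. The variant core GCGTG was in 55.6% of member windows and 40.9% of all. ACGTG also lies inside CACGTG, the E-box of MYC and USF factors, which was in 13.0% of member windows and 7.87% of all. A match is a string of letters, not a bound site. The windows below belong to textbook HIF targets or to the genes on which the expression results turn. They run 5′ to 3′ on the strand of the gene, with the core in capitals, as ACGTG or as CACGT where it lies on the opposite strand.
Vegfa, chr17:46025359-46025385, minus strand: gagtgcgtgccCACGTcagagagcaac
Egln3, chr12:54204088-54204114, minus strand: gtgcatctcagACGTGagatccaggtt
Slc2a1, chr4:119108698-119108724, plus strand: tcccgccccggACGTGctccccaggcc
Hif1a, chr12:73907786-73907812, plus strand: ggctgagagcaACGTGggctggggtgg
Pgk1, chrX:106186939-106186965, plus strand: cgtcgtgcaggACGTGacaaatggaag
Ldha, chr7:46845759-46845785, plus strand: gtgggttcccgCACGTccgctgggctc
Bnip3, chr7:138909598-138909624, minus strand: gcacgcgccgcACGTGccacacgctcc
Ankrd37, chr8:46000076-46000100, minus strand: cccagcagtACGTGcctagctcggc
By the RefSeq coordinates, the printed windows of Vegfa, Hif1a, Ldha and Ankrd37 lie inside the gene, before a start downstream of its outermost one. For Vegfa, the window of the upstream start held no match. In Ldha 3 positions held the core, of which 2 were E-boxes. The core in Bnip3 was an E-box too. Among the other members with ACGTG were Pgam1, Pkm, Aldoa, Hk2, Pfkfb3, Pdk3 and Slc16a1.

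Values are TPM, which correct reads for the length of the gene and sum to 1000000 in each library. Whole reads could be worked back from the ratios between libraries for all rows, within a tolerance of 0.001 reads, and came to between 10907979 and 12753076 per library. Protein-coding rows held 25.87% to 30.11% of TPM. The 8 genes of the sort, of which Cd48 is the negative one, were all listed, with a sum of 439.8 to 512.8 TPM in the WT libraries and 387.0 to 466.8 TPM in MecomWT:R751W. Cd48, which the gate selects against, was at 1.02 to 2.18 and 2.27 to 4.10 TPM, so the groups did not overlap. None of 5 T cell markers was listed, and 1 of 5 B cell, 3 of 8 neutrophil, 4 of 7 monocyte and macrophage and 5 of 8 erythroid markers were. Summed levels overlapped between genotypes for each of these lists with a listed gene, with 26.1 to 39.4 and 33.5 to 38.4 TPM for erythroid, 29.6 to 37.3 and 28.7 to 35.3 TPM for neutrophil, 13.4 to 16.6 and 12.2 to 17.5 TPM for monocyte and macrophage, and 5.30 to 8.21 and 6.38 to 8.11 TPM for B cell markers. Of 5 stromal markers 3 were listed, at 4.92 to 5.91 and 3.21 to 5.60 TPM. Mecom itself was at 42.9, 34.9 and 36.9 TPM in the WT libraries and 50.9, 39.9 and 44.0 TPM in MecomWT:R751W (log2 fold change 0.23, SE 0.14; adjusted p = 0.958, limma), and 0.14 when MecomWT:R751W replicate 1 was left out. Reads of the normal and the altered allele are added in this value.

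Of the 40 genes, 37 reached the mean of 1 TPM over 6 libraries that was required for testing, and Epas1, Pdk4 and Slc16a3 did not. The levels spanned 71.5 TPM for Aldoa to 0.814 TPM for Epas1 as means of the 6 libraries. In bulk RNA, fewer cells with a transcript and less transcript per cell cannot be told apart. The plot of levels shows that paralogs of 1 family often lay far apart while the genotypes lay close together.

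**Figure D1:**
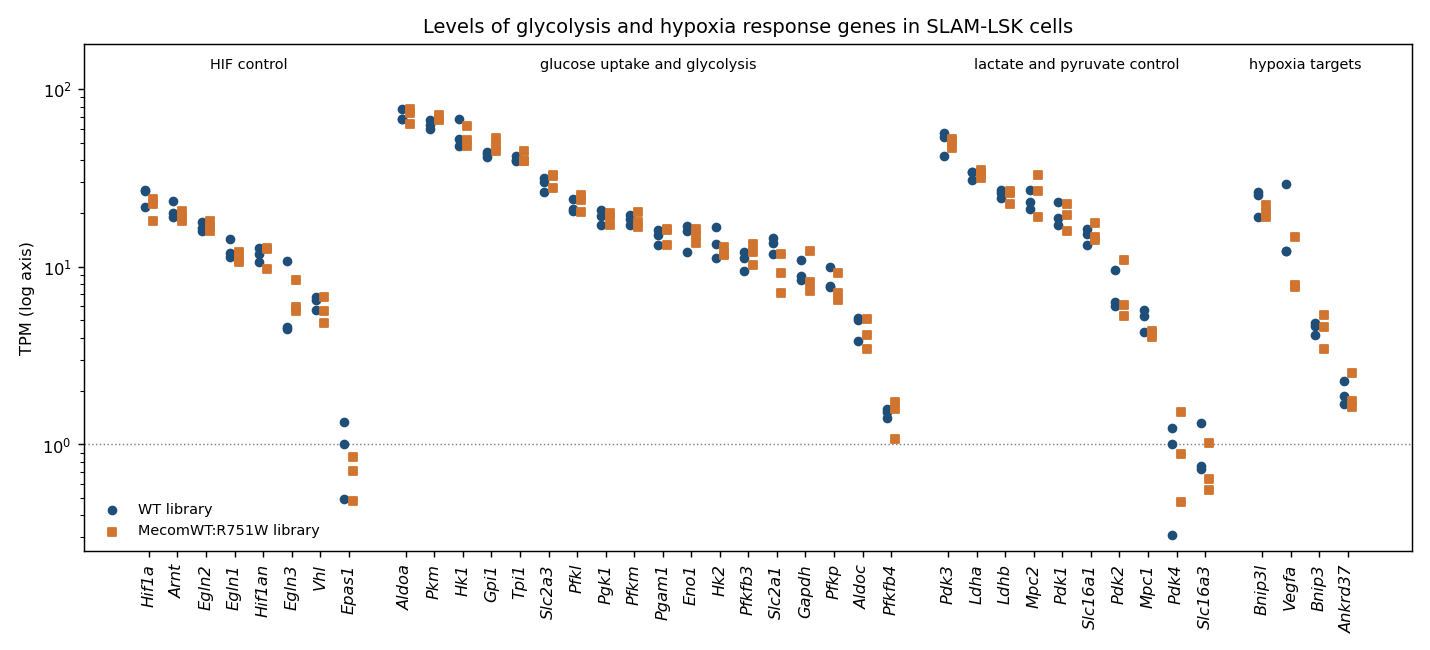
TPM of each of the 40 genes on a log axis, in 4 groups ordered by mean level. Circles are the 3 WT libraries and squares the 3 MecomWT:R751W libraries, and the dotted line marks 1 TPM. Epas1, Pdk4 and Slc16a3 lie around or below that line, and Aldoa and Pkm are at the top.

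No member passed the test between genotypes. With limma on log2(TPM + 1), 0 of 37 members and 0 of 16655 genes (0.0%) had an adjusted p under 0.05. At an unadjusted p under 0.05 stood 2 members, Slc2a1 and Vegfa, both with negative log2 fold changes, against 5.97% of all genes (2.74% higher and 3.23% lower). In 1 member, Gpi1, the 3 MecomWT:R751W values lay wholly above WT, and in 0 wholly below; among all genes 4.5% lay wholly above and 4.7% wholly below, 9.19% together. With limma-voom on the implied reads 0 members and 53 genes (0.318%) were called. The median log2 fold change of the members was -0.018, beside -0.0037 for all genes tested, with 13 members above 0 and 24 below. For 30 of the 37 the estimate was smaller than its own SE. The 95% intervals, drawn in the plot of log2 fold changes, ran at the extremes from -1.38 for Vegfa to 0.67 for Egln3, so differences within these bounds remain possible.

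**Figure D2:**
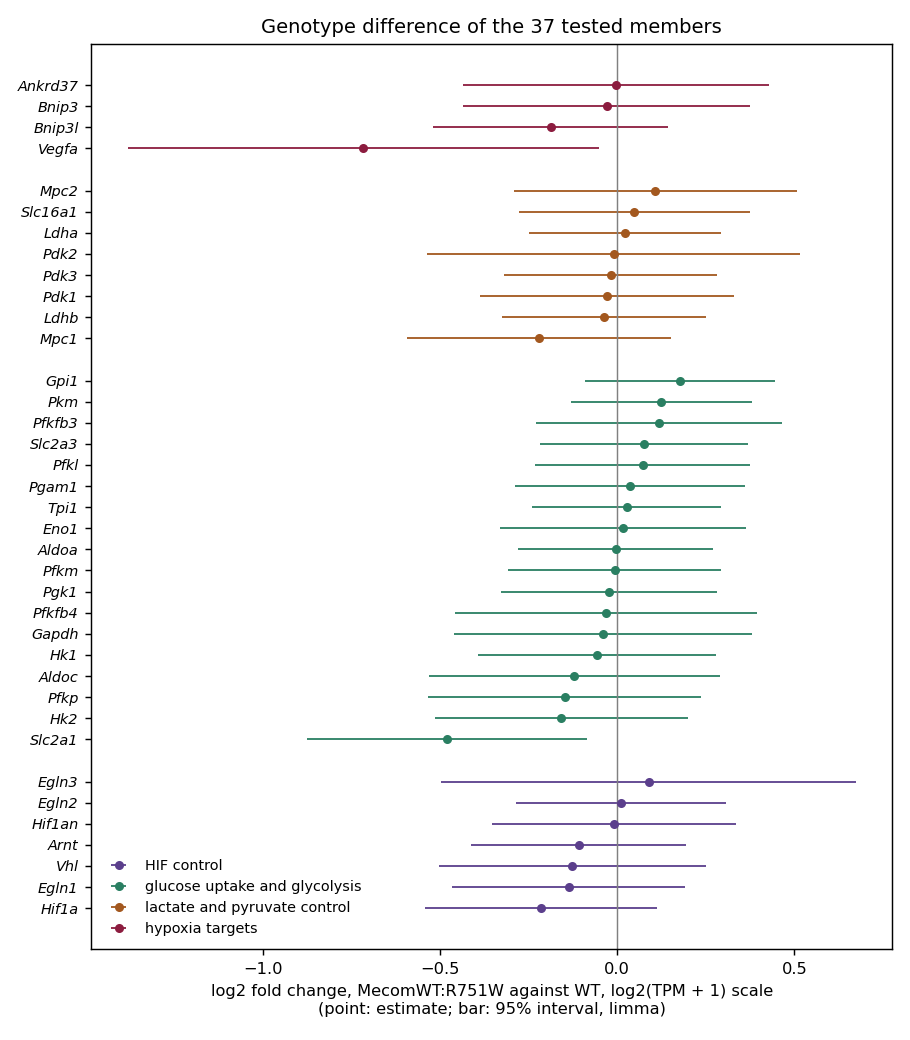
Log2 fold change of MecomWT:R751W against WT on the log2(TPM + 1) scale for the 37 tested members, coloured by role. Points are limma estimates and bars 95% intervals without adjustment for the number of genes. The intervals of Slc2a1 and Vegfa lie below 0 and all others cross it.

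Of the 2 HIF alpha subunits among the members, Hif1a dominated and Epas1 lay below the mean of 1 TPM required for testing. Hif3a, from the list of HIF partners, was at 4.16 ± 0.65 TPM in the WT libraries and 3.74 ± 0.46 TPM in MecomWT:R751W. It is not counted in the share below. Hif1a was at 27.2, 21.9 and 26.6 TPM in the WT libraries and 24.0, 18.2 and 22.7 TPM in MecomWT:R751W. The groups overlapped, with the lowest value in MecomWT:R751W replicate 2. Its log2 fold change was -0.22 (SE 0.15; adjusted p = 1 by limma), and -0.10 without that library. Epas1, which encodes HIF2A, was at 1.00, 0.49 and 1.35 TPM in the WT libraries and 0.71, 0.48 and 0.85 TPM in MecomWT:R751W, from 21 to 63 reads a library. Hif1a therefore held 96.7% ± 0.93 (SD, n = 6) of the summed TPM of the pair, and was the higher of the 2 in 6 of 6 libraries. Arnt, their common partner, was at 20.9 ± 2.38 TPM in the WT libraries and 19.3 ± 1.20 TPM in MecomWT:R751W (SD, n = 3 each).

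The 3 prolyl hydroxylases were all present. Egln2 (PHD1) was the highest, at 16.8 ± 1.005 TPM in the WT libraries and 17.0 ± 1.13 TPM in MecomWT:R751W. Egln1 (PHD2), regarded as the main oxygen sensor, was at 12.6 ± 1.60 and 11.3 ± 0.79 TPM. As a share of the family's TPM, Egln1 stood at 35.0% ± 0.60 in WT and 32.4% ± 1.34 in MecomWT:R751W, and the groups did not overlap (exact two-sided permutation p = 0.1, the smallest possible with 3 against 3; adjusted over 12 shares 0.6). Egln3 (PHD3), itself a HIF target, varied more between libraries than between genotypes. It was at 10.8, 4.46 and 4.61 TPM in the WT libraries and 8.39, 5.63 and 5.96 TPM in MecomWT:R751W, so that replicate 1 was the highest of its group in each genotype. Its log2 fold change of 0.09 (SE 0.27) became 0.45 without WT replicate 1, and negative without WT replicate 2 or 3 or MecomWT:R751W replicate 1. Vhl, the substrate receptor of the ubiquitin ligase, was at 6.32 ± 0.56 and 5.74 ± 0.98 TPM. Hif1an, the asparaginyl hydroxylase FIH, was at 11.8 ± 1.09 and 11.7 ± 1.70 TPM.

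Glucose enters these cells through SLC2A (GLUT) transporters. Of the pair among the members, Slc2a3 was the higher in 6 of 6 libraries. Slc2a9 and Slc2a8, outside the members, had means of 3.63 and 2.24 TPM over 6 libraries and are not counted in this pair. Slc2a3 (GLUT3) was at 30.1, 26.4 and 31.8 TPM in the WT libraries and 32.8, 27.9 and 32.6 TPM in MecomWT:R751W. Slc2a1 (GLUT1) was at 14.5, 13.6 and 11.8 TPM in the WT libraries and 11.8, 7.11 and 9.27 TPM in MecomWT:R751W. The highest MecomWT:R751W value (11.79 TPM) exceeded the lowest WT value (11.77 TPM) by less than counting error, and the other values did not overlap. The log2 fold change of Slc2a1 was -0.48 (SE 0.18; unadjusted p = 0.0212, adjusted p = 0.721 by limma), and -0.31 without MecomWT:R751W replicate 2. Within the pair, Slc2a1 held 31.2% ± 3.68 in WT and 23.0% ± 3.14 in MecomWT:R751W. These shares did not overlap (exact two-sided permutation p = 0.1; adjusted over 12 shares 0.6). Slc2a1 lies on chromosome 4 from 119108745 to 119137330 and Slc2a3 on chromosome 6 from 122727809 to 122802363.

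The enzymes of the first steps were clear in their paralog choice and showed no called difference. Hk1, the hexokinase of most tissues, held 80.9% ± 1.85 of the hexokinase pair over 6 libraries, and Hk2, the inducible form and a HIF target, the rest. Hk3, at a mean of 10.3 TPM over 6 libraries, is outside the members and not counted in this pair. Hk1 was at 56.4 ± 10.7 TPM in the WT libraries and 53.9 ± 7.38 TPM in MecomWT:R751W, and Hk2 at 13.8 ± 2.81 and 12.1 ± 0.69 TPM. Gpi1, glucose-6-phosphate isomerase, was the member whose groups did not overlap. It stood at 41.6, 44.3 and 43.5 TPM in the WT libraries and 53.2, 44.8 and 48.9 TPM in MecomWT:R751W. The gap between the highest WT and the lowest MecomWT:R751W value was small beside the range within MecomWT:R751W. Its log2 fold change was 0.18 (SE 0.12; adjusted p = 1 by limma), and 0.12 without MecomWT:R751W replicate 1. Gpi1 lies on chromosome 7 from 34201327 to 34230336.

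Phosphofructokinase, the committed step, was a mixture. Pfkl (liver type) held 46.0% ± 2.65 of the family's TPM over 6 libraries, Pfkm (muscle type) 37.6% ± 0.99 and Pfkp (platelet type) 16.4% ± 2.19. These shares rest on the lengths in the table: per longest coding transcript they were 35.0%, 32.7% and 32.3%. Its activator is made by PFKFB enzymes. Pfkfb3 was at 10.9 ± 1.28 TPM in the WT libraries and 12.0 ± 1.62 TPM in MecomWT:R751W, and Pfkfb4, a strongly hypoxia-induced form in many cells, at 1.5 ± 0.083 and 1.47 ± 0.34 TPM. Aldoa had the highest mean of the members' own rows, at 71.5 ± 5.52 and 71.4 ± 6.95 TPM, above Pkm in 5 of 6 libraries, with 94.1% ± 0.69 of the aldolase pair. Aldoc, the brain-type aldolase, was at 4.68 ± 0.72 and 4.24 ± 0.84 TPM. Tpi1, triose phosphate isomerase, was at 40.6 ± 1.27 and 41.4 ± 3.22 TPM.

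**Figure D3:**
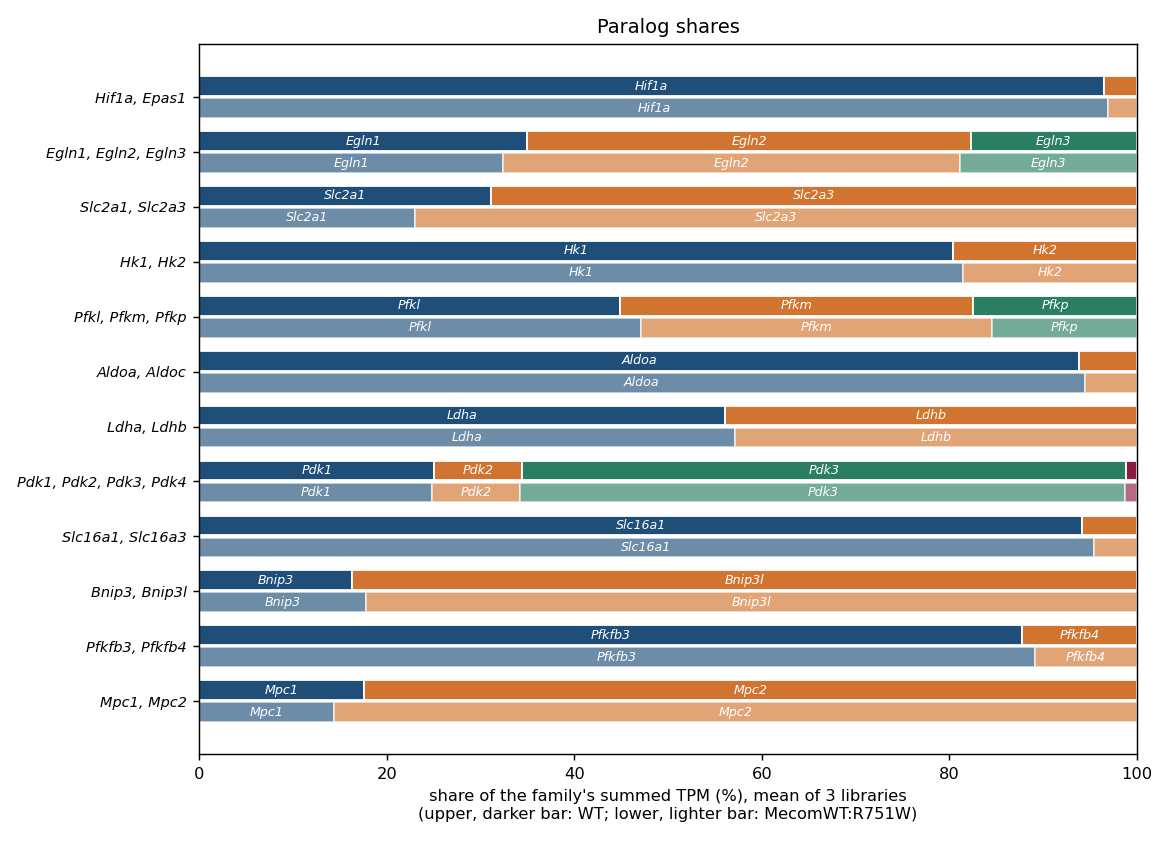
Share of each paralog in the summed TPM of its family (%), as the mean of 3 libraries, with the upper, darker bar for WT and the lower, lighter bar for MecomWT:R751W. Only paralogs among the members are counted. Other measured paralogs, among them Hif3a, Hk3, Slc2a8, Slc2a9, Slc16a7, Pfkfb1 and Pfkfb2, are left out. Among the members, single paralogs dominate the HIF alpha, hexokinase, aldolase and SLC16A families. The SLC2A bars differ most, with Slc2a1 at 31.2% and 23.0%.

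Several of the later enzymes carry near-identical copies in the genome, most of them annotated as pseudogenes, and the rows of these copies held reads as well. In GENCODE M21, 141 pseudogenes and 9 other genes matched the longest Gapdh transcript at 90% identity or more over at least 50% of its length, and 66 of them had rows in the table. Gapdh, usually a very abundant mRNA, read 9.42 ± 1.38 TPM in the WT libraries and 9.29 ± 2.63 TPM in MecomWT:R751W in its own row. The 66 copies summed to 417.9, 375.2 and 411.2 TPM in the WT libraries and 450.0, 395.8 and 453.8 TPM in MecomWT:R751W. The gene's own row was thus 2.19% of the total of 426.7 TPM. Eno1, enolase, had 15.0 ± 2.60 and 15.1 ± 1.38 TPM, beside a sum of 96.5 to 125.3 TPM for 4 copies, of which the retrogene Eno1b held the most at 78.0 TPM. Pgk1, phosphoglycerate kinase and a textbook HIF target, had 19.2 ± 1.85 and 18.9 ± 1.54 TPM beside 64.9 to 77.7 TPM for 2 copies.

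With gene and copies added, the genotypes overlapped for each of the 6 members that had listed copies. The totals of Gapdh, Pkm, Eno1 and Pgk1 exceeded the 83.7 TPM of Aldoa with its copies. This order, and the share of the Gapdh row above, rest on the lengths implied by the TPM values. For the genes' own rows these were 1.98 (Eno1), 1.68 (Pkm), 1.56 (Aldoa), 1.36 (Gapdh) and 1.0 (Pgk1) times the longest coding transcript. The Gapdh total was 410.8 ± 23.6 TPM in the WT libraries and 442.5 ± 33.6 TPM in MecomWT:R751W, the Eno1 total 124.6 ± 16.9 and 127.8 ± 10.6 TPM, and the Pgk1 total 88.1 ± 3.31 and 91.0 ± 6.75 TPM. Which of these rows the reads came from cannot be told from the table, so the levels of Gapdh, Eno1, Pgk1, Pkm, Ldha and Aldoa are uncertain. Pkm, pyruvate kinase, was at 63.2 ± 3.85 TPM in the WT libraries and 68.9 ± 2.79 TPM in MecomWT:R751W, beside 73.3 to 86.2 TPM for 4 copies. Its log2 fold change was 0.12 (SE 0.12), and its M1 and M2 splice forms are added in this value. Pgam1, phosphoglycerate mutase, had no copy under this rule and stood at 14.9 ± 1.4 and 15.3 ± 1.79 TPM.

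**Figure D4:**
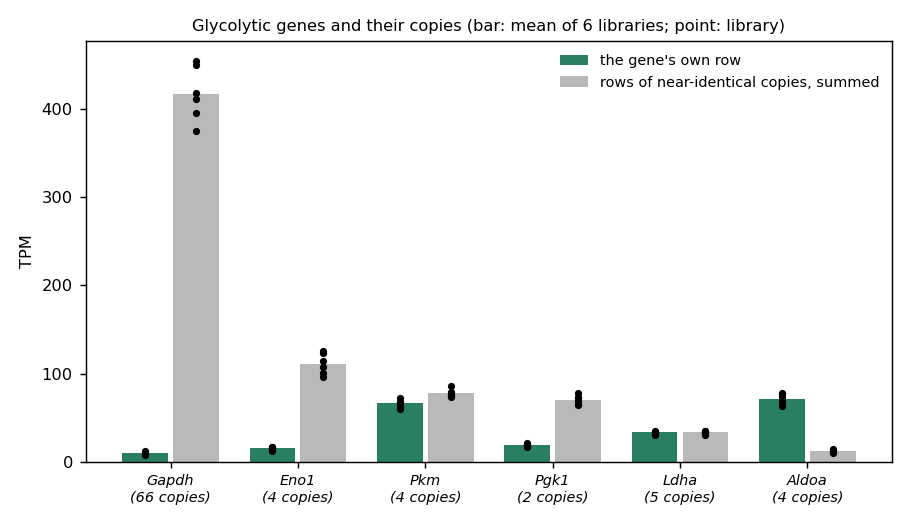
TPM of 6 glycolytic genes in their own rows and summed over the rows of near-identical copies, with bars for the mean of all 6 libraries and points for single libraries. The copies of Gapdh lie between 375.2 and 453.8 TPM, while its own row has a mean of 9.35 TPM.

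Pyruvate becomes lactate through lactate dehydrogenase, whose A and B subunits favour opposite directions. Ldha was at 34.2, 30.7 and 34.0 TPM in the WT libraries and 33.7, 31.7 and 35.1 TPM in MecomWT:R751W, with overlapping groups and a log2 fold change of 0.02 (SE 0.13). Ldhb was at 27.0, 26.0 and 24.3 TPM in the WT libraries and 26.9, 22.6 and 25.9 TPM in MecomWT:R751W. Ldha held 56.1% ± 2.14 and 57.2% ± 1.42 of the pair. This share rests on gene length: the length implied by the table was 5342 bases for Ldha and 1304 for Ldhb, against 1815 and 1304 for the longest GENCODE coding transcripts. Per longest coding transcript the share of Ldha was 79.3% ± 1.15 over 6 libraries. Both shares leave out the rows of 5 near-identical copies of Ldha, which summed to a mean of 33.4 TPM over 6 libraries. Ldhb had 0 listed copies.

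The pyruvate dehydrogenase kinases inhibit pyruvate dehydrogenase, which uses pyruvate inside mitochondria. Pdk3 was the highest at 56.7, 42.3 and 53.7 TPM in the WT libraries and 52.6, 46.5 and 50.7 TPM in MecomWT:R751W, and held 64.5% ± 2.59 of the family. Pdk1, a HIF target, was at 23.3, 17.2 and 18.9 TPM in the WT libraries and 22.6, 16.0 and 19.6 TPM in MecomWT:R751W, with 25.0% ± 1.60. Pdk2 was at 7.32 ± 1.95 and 7.47 ± 3.06 TPM. Pdk4, the fasting-induced form, was at 0.31, 1.23 and 1.01 TPM in the WT libraries and 0.88, 0.47 and 1.52 TPM in MecomWT:R751W, with 8 to 44 reads a library, and the groups overlapped widely. The carriers that bring pyruvate into mitochondria form a pair. Mpc1 was at 5.28, 4.30 and 5.69 TPM in the WT libraries and 4.24, 4.37 and 4.02 TPM in MecomWT:R751W, a log2 fold change of -0.22 (SE 0.17; adjusted p = 1 by limma). Mpc2 was at 27.1, 21.3 and 23.1 TPM in the WT libraries and 19.1, 26.6 and 33.1 TPM in MecomWT:R751W, which held both its lowest and its highest value. Of the lactate transporters, Slc16a1 (MCT1) was at 15.0 ± 1.52 and 15.5 ± 1.90 TPM and held 94.8% ± 1.66 of the pair. Slc16a3 (MCT4), the exporter of highly glycolytic cells, was at 0.938 ± 0.34 and 0.736 ± 0.25 TPM. Slc16a7, which is outside the members and not counted in this pair, was at 3.10 ± 0.25 and 2.86 ± 0.48 TPM.

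Of the hypoxia targets, Vegfa, the vascular growth factor, had the lowest log2 fold change of all members and the largest SE on that scale. It was at 29.5, 12.3 and 12.3 TPM in the WT libraries and 14.8, 7.67 and 7.87 TPM in MecomWT:R751W, from 923, 423 and 440 reads and 446, 255 and 276 reads. The groups overlapped because MecomWT:R751W replicate 1 lay above WT replicates 2 and 3. The log2 fold change was -0.72 (SE 0.31; unadjusted p = 0.0366, adjusted p = 0.797 by limma). Without WT replicate 1 it was -0.32. Ngp, a neutrophil granule gene, was also highest in WT replicate 1, at 12.2, 3.35 and 1.00 TPM in the WT libraries and 2.03, 1.84 and 1.33 TPM in MecomWT:R751W (-0.84, SE 0.48; adjusted p = 0.943 by limma, and -0.12 without WT replicate 1). In the order of the WT libraries the other listed neutrophil markers went the other way, with WT replicate 1 the lowest. Between genotypes, Mpo was below 0 like Ngp, at -0.14 (SE 0.20), and Prtn3 above 0, at 0.18 (SE 0.14). Prtn3 was at 24.1, 27.8 and 27.0 TPM in the WT libraries and Mpo at 0.97, 1.10 and 1.60 TPM, while 5 of 8 neutrophil markers were not listed. The part of Ngp in the values of Vegfa was not tested. Vegfa lies on chromosome 17 from 46016993 to 46032377. Bnip3l (NIX), a mitophagy receptor needed in red cell maturation, was at 25.5, 19.1 and 26.5 TPM in the WT libraries and 22.4, 19.2 and 20.03 TPM in MecomWT:R751W. Its log2 fold change of -0.19 (SE 0.15) was -0.33 without WT replicate 2 and -0.10 without WT replicate 3. Its paralog Bnip3 was at 4.53 ± 0.38 and 4.47 ± 0.98 TPM, and Ankrd37, an ankyrin repeat protein induced by HIF, at 1.95 ± 0.30 and 1.96 ± 0.48 TPM.

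Vegfa and Egln3 shared a second pattern, across libraries rather than genotypes. WT replicate 1 was 2.40 times the mean of WT replicates 2 and 3 for Vegfa and 2.37 times for Egln3. In MecomWT:R751W, replicate 1 was 1.91 and 1.45 times the mean of the other two. Both ratios were at least 1.4 in these 2 members and in 2.34% of all genes tested, a limit set after the values were seen. Over all genes the median ratios were 1.09 in WT and 1.06 in MecomWT:R751W, and replicate 1 was the highest in both genotypes for 25.0% of genes and 15 of 37 members. Among these were Hif1a, Arnt, Egln1, Slc2a1, Pdk1, Aldoa and Pfkp. Bnip3, Ankrd37, Hk2 and Ldha, also known HIF targets, were not. The share of TPM in protein-coding rows was also highest in replicate 1 of each genotype, at 30.11% in WT and 29.73% in MecomWT:R751W. It was lowest in replicate 2 of each, at 25.87% and 26.02%. The part of this share in the replicate pattern was not tested. The labels give no batch, date or animal that ties libraries of the same number together.

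**Figure D5:**
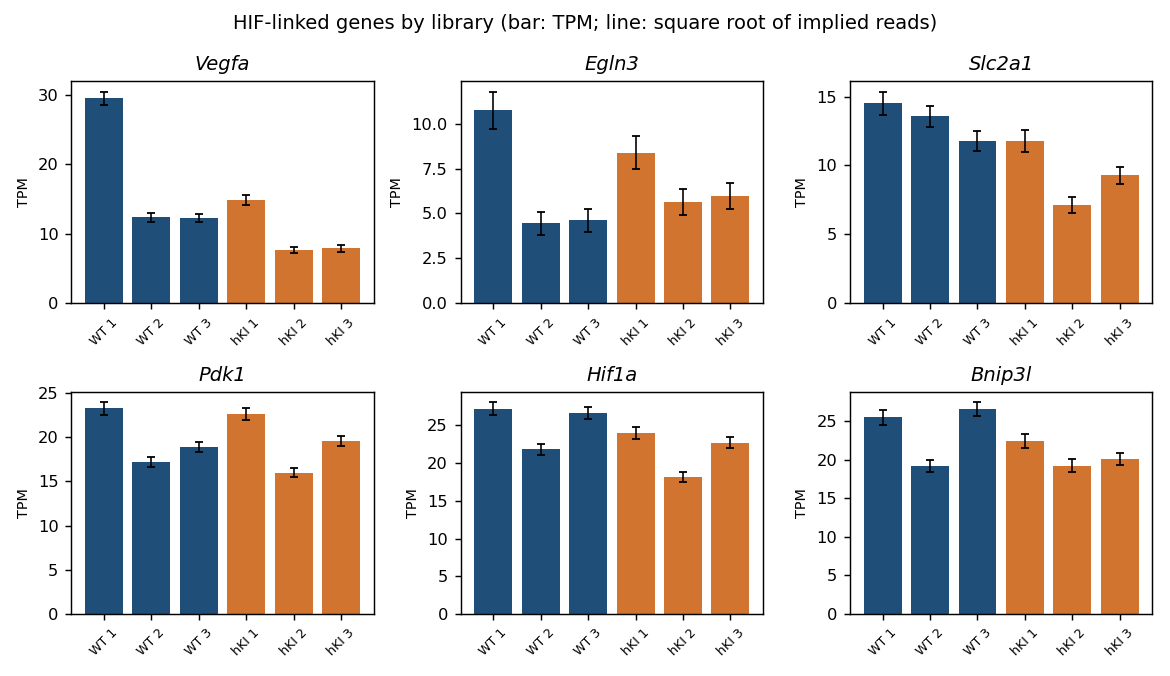
TPM of 6 HIF-linked genes in each library, with WT in blue and MecomWT:R751W (hKI) in orange. Lines span the square root of the implied reads to each side and so show counting error only. Vegfa and Egln3 are highest in replicate 1 of each genotype, and Slc2a1 is lower in each hKI library than in WT replicates 1 and 2.

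Other genes of the same pathways were measured from lists chosen by function. Among other glycolytic enzymes and transporters, 20 of 28 were listed and 15 tested, with 0 called, 10 above 0 and a median log2 fold change of 0.09. Hk3, the myeloid hexokinase, was at 8.27, 8.08 and 8.94 TPM in the WT libraries and 12.8, 9.82 and 13.7 TPM in MecomWT:R751W, without overlap (0.46, SE 0.16; adjusted p = 0.662 by limma). Fbp1, which runs the phosphofructokinase step backwards, stood at 0.54 (SE 0.22; adjusted p = 0.776 by limma) and Pfkfb2 at 0.22 (SE 0.18). Fbp1 was low, at 0.776, 1.77 and 1.02 TPM in the WT libraries and 2.58, 1.68 and 2.15 TPM in MecomWT:R751W. Its groups overlapped, and its values came from 10 to 32 reads a library. Pfkfb2 stood at 0.14 without MecomWT:R751W replicate 1 and 0.38 without MecomWT:R751W replicate 2. All 8 pentose phosphate genes were tested and 0 called, with a median of 0.0015. Rpe stood at 0.19, Taldo1 at 0.10 and Rpia at 0.08. Without MecomWT:R751W replicate 1, Rpe stood at 0.099 and Rpia at 0.041, and without MecomWT:R751W replicate 2, Rpe stood at 0.30. Without WT replicate 1, Taldo1 stood at 0.22 and Rpia at 0.16, and without WT replicate 3, Taldo1 stood at 0.045. Of 8 genes of the pyruvate dehydrogenase complex and its phosphatases 0 were called, with a median of -0.014. Pdp2, a phosphatase that opposes the kinases above, was at 9.24, 7.90 and 9.18 TPM in the WT libraries and 6.95, 6.03 and 7.21 TPM in MecomWT:R751W, without overlap (-0.34, SE 0.16; adjusted p = 0.846 by limma). Pdhb stood at -0.15 and Pdp1 at 0.10. Without WT replicate 2, Pdhb stood at -0.30 and Pdp1 at 0.023. Without MecomWT:R751W replicate 2, Pdhb turned to 0.0075, and without WT replicate 1, Pdp1 stood at 0.15.

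Of 13 HIF partners and parts of the VHL ligase, 12 were tested and 0 called, with 9 below 0 and a median of -0.08. Siah2, a ubiquitin ligase that destroys EGLN hydroxylases, had the lowest log2 fold change there. It was at 11.6, 10.1 and 12.0 TPM in the WT libraries and 8.23, 5.23 and 5.22 TPM in MecomWT:R751W, and the groups did not overlap (-0.78, SE 0.19; adjusted p = 0.306 by limma). Arntl stood at -0.45 (SE 0.22) and Rbx1 at -0.21 (SE 0.15), and these became -0.29 and -0.10 without MecomWT:R751W replicate 2. Of 32 other hypoxia targets, 25 were listed and 23 tested, with 0 called, 14 below 0 and a median of -0.02. Rnaset2a stood at -0.44 (SE 0.18), Jmjd6 at -0.30 (SE 0.17) and Insig2 at 0.34 (SE 0.20). Rnaset2a stood at -0.26 and Jmjd6 at -0.19 without MecomWT:R751W replicate 2, and Jmjd6 at -0.47 without MecomWT:R751W replicate 1.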

How the data were processed

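The authors deposited 1 table of TPM with 18465 rows and 1 column per library. The submitters' processing notes name mm10 and DESeq2 without a role. The aligner, counter, annotation and rule for reads that match several places were not given in the sources used here, and several library kits, by input, are listed in the labels' protocols, without saying which was used.

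Whole reads were worked back by dividing 1 factor per library out of each gene's 6 values and taking the smallest whole numbers that fit. A factor common to all 6 numbers can be missed, so reads of single genes are minima; in simulation 98.42% of 2984 genes were recovered exactly. The main test was limma 3.58.1 (R 4.3.3) on log2(TPM + 1), with a variance trend and no covariate beside genotype. It covered the 16655 genes that averaged 1 TPM or more, with two-sided p-values and Benjamini-Hochberg adjustment at 0.05. The main test was also run on simulated counts with known changes and the same dispersion for every gene. That simulation held no pattern shared by replicates and no changes as small as those of most members, so it does not bear on either. Paralog shares were compared by exact permutation (scipy 1.17.1). Copies were searched with blastn 2.17.0. Figures used matplotlib 3.10.9. Promoter windows and gene coordinates are from RefSeq, GRCm38.p6.

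All 40 members and Mecom were to be named whatever their values, with the 3 genes of smallest p from each further list. The members and lists were chosen with earlier results of these data known. Alternatives changed the pseudocount, filter, scaling, variance trend, replicate block and data type, and left out each library.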

Additional observations from a re-analysis of the deposited data

How the results depend on the processing

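Across 16 other settings, 0 members were called in 15. In the exception, added after the data were seen, TPM was rescaled over protein-coding rows and the replicate number entered as a block: 1 member, Vegfa, was called (log2 fold change -0.75, adjusted p = 0.0414 by limma), with 7 higher and 32 lower genes in all (0.315%). With the replicate block alone 0 genes were called and Vegfa had an adjusted p of 0.278. With rescaling alone Vegfa had 0.391, and 8 higher and 9 lower genes were called (0.137%). Over the 16 settings its adjusted p thus passed in 1. The numbers were not taken to pair the libraries: deviations of same-numbered libraries correlated at 0.14, 0.089 and 0.083 across genes, though each library correlated best with its own number. With voom on implied reads 24 higher and 29 lower genes were called, and with a mean of at least 5 TPM 1 and 1. Leaving out 1 library gave 0 to 6 higher and 0 to 9 lower genes, the most without WT replicate 3 and MecomWT:R751W replicate 1. The median of the members ran from -0.073 without WT replicate 2 to 0.044 without MecomWT:R751W replicate 2, where the median of all genes was -0.065 and 0.053.

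The sign was kept by 16 members in every setting that tested them (Aldoc and Mpc1 fall below a mean of 5 TPM), among them Vegfa (-1.0 to -0.32 on leaving out 1 library), Slc2a1 (-0.64 to -0.31), Hif1a, Gpi1 and Pkm, and turned in 21, of which 18 turned only when 1 library was left out. Other turns were Aldoa at 0.00084 and Ankrd37 at 0.0013 with median-of-ratios scaling, 0.0034 and 0.014 with voom, and Pdk2 at 0.00076 and Ankrd37 at 0.00039 with a pseudocount of 5. On leaving out 1 library the log2 fold changes ran from -0.036 to 0.056 for Egln2, -0.10 to 0.45 for Egln3, -0.076 to 0.11 for Hif1an, -0.16 to 0.089 for Hk1, -0.078 to 0.051 for Pfkm, -0.061 to 0.075 for Aldoa, -0.035 to 0.061 for Tpi1, -0.24 to 0.097 for Gapdh, -0.092 to 0.041 for Pgk1, -0.036 to 0.13 for Pgam1, -0.12 to 0.11 for Eno1, -0.028 to 0.060 for Ldha, -0.085 to 0.035 for Ldhb, -0.14 to 0.096 for Pdk1, -0.29 to 0.18 for Pdk2, -0.14 to 0.064 for Pdk3, -0.044 to 0.11 for Slc16a1, -0.15 to 0.11 for Bnip3, -0.13 to 0.079 for Ankrd37, -0.11 to 0.088 for Pfkfb4 and -0.070 to 0.31 for Mpc2. The cause of these turns was not tested.

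Differences in paralog share, MecomWT:R751W minus WT in percentage points, ran from -10.3 to -6.78 for Slc2a1 and -3.30 to -2.05 for Egln1. They turned for Hif1a (-0.152 to 1.16), Hk1 (-0.216 to 2.45), Pdk1 (-1.42 to 0.692) and Bnip3 (-0.0694 to 3.33).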

Other observations

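The lengths behind the TPM values differ from single transcripts for some members, which moves paralog shares. The implied length was 3.92 times the longest GENCODE coding transcript for Mpc1, 3.4 times for Pfkfb4, 2.94 times for Ldha, 2.84 times for Pfkp and 2.4 times for Ankrd37. Per longest coding transcript, Mpc1 held 48.3% of the pyruvate carrier pair in place of 16.0%, Pfkp 32.3% of the phosphofructokinases in place of 16.4%, and Pfkfb4 24.7% of its pair in place of 11.5%. Slc2a1 held 17.7% of its pair in place of 27.1%, Egln3 9.71% of its family in place of 18.3%, Hk1 78.5% in place of 80.9%, and Hif1a 96.9% in place of 96.7%. For Egln3 the implied length of 1338 bases was 0.5 of the 2662 bases of its transcript, so its reads may hold a common factor that was missed. In that case the share of 9.71%, which is computed from these reads, is too low. These choices leave the ratio between genotypes of each single gene as it was.

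Of the endothelial markers, 5 of 6 were listed, with sums of 91.0 to 109.5 TPM in WT and 102.1 to 128.4 TPM in MecomWT:R751W. Cdh5 was not listed. Emcn, also a stem cell surface protein, was at 13.7, 13.6 and 13.7 TPM in WT and 19.4, 19.3 and 25.1 TPM in MecomWT:R751W, without overlap (log2 fold change 0.59, SE 0.15; adjusted p = 0.344 by limma). Pecam1 stood at -0.13 (SE 0.17) and Tie1 at 0.07 (SE 0.14), Egfl7 at 0.27 (SE 0.24), all with overlapping groups, and Kdr was below the mean required for testing. The part of Emcn in the values of Vegfa and Slc2a1 was not tested.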
